A study of Mus musculus with 12 samples.

Results

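The Cpeb genes Cpeb1, Cpeb2, Cpeb3 and Cpeb4 encode the cytoplasmic polyadenylation element binding proteins of the mouse, and all 4 were measured among the 19938 genes of liver arrays from wild-type and p65 S534A mice. They were chosen because Cpeb2 was the single gene called lower in S534A than in wild-type (WT) livers after lipopolysaccharide (LPS), and the other members complete its family. The difference between those genotypes is therefore described for the family and not tested. Each gene was read by 1 probe set with its symbol alone: 10565089 for Cpeb1, 10521602 for Cpeb2, 10467216 for Cpeb3 and 10375002 for Cpeb4. In the GRCm38.p6 gene table the genes lie on chromosomes 7, 5, 19 and 11, so they are not neighbours.

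The arrays covered 12 livers, 1 array each, all from male mice of C57Bl/6 background (C57Bl6/J in the source names). They fell into 3 groups of 4. These were untreated WT livers, WT livers after LPS at 1 µg/kg, and livers of S534A mice after the same dose. LPS is a cell wall component of Gram-negative bacteria that activates NF-kB through Toll-like receptor 4. S534A mice carry a serine-to-alanine codon change in the gene of p65 (Rela), knocked in through PTL1 embryonic stem cells in every tissue, freed of its selection cassette with FLPe, backcrossed to C57Bl6/J and bred to homozygosity. The sources used here give neither the age of the mice nor the time after LPS. With no untreated S534A group analysed here, a difference between the genotypes at rest and one in their LPS response cannot be told apart. The titles of the untreated arrays follow their own scheme, and if those arrays were a separate run, run and treatment cannot be told apart.

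CPEB proteins bind a short uridine-rich element in the 3' untranslated region of their target messages. Depending on phosphorylation and partners, they recruit a cytoplasmic poly(A) polymerase that lengthens the poly(A) tail and favours translation, or deadenylases and cap-binding repressors that silence the message. CPEB1 is the founding member, while CPEB2, CPEB3 and CPEB4 form a separate branch with closely related RNA-binding domains. In liver, CPEB4 is known as a translational regulator under endoplasmic reticulum stress whose own level follows the circadian clock. The arrays measured the transcripts of these regulators, not the proteins, poly(A) tails or translation.

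The arrays gave RMA values (background-corrected, quantile-normalised summaries of each probe set) on a log2 scale from 3.43 to 14.48, with array medians between 6.15 and 6.32. Hepatocyte markers averaged 13.41 to 13.52 on every array. Exocrine pancreas markers (14 measured) averaged 9.34 on S534A LPS replicate 3, 8.35 on WT LPS replicate 2 and 6.72 on WT LPS replicate 3, against 5.79 to 6.30 on the other arrays. The untreated livers fell apart in clock transcripts: the clock output gene Dbp read 8.14 and 7.59 on replicates 1 and 3 against 11.19 and 11.39 on replicates 2 and 4. The labels do not state that every liver came from its own animal, and p-values therefore measure only the spread between these livers.

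Cpeb2 read lower in S534A livers after LPS than in either WT group, whereas Cpeb3 and, on average, Cpeb4 read higher. The S534A values of Cpeb4 overlapped those of WT LPS livers at 1 array, and Cpeb1 overlapped between all groups. Averaged over both LPS groups, Cpeb3 was 1.57-fold higher than in untreated livers, the single call among the 3 members tested (limma's moderated test, p adjusted over all genes by Benjamini-Hochberg, threshold 0.05), where 31.1% of all genes passed. No comparison of Cpeb2 was tested, since each uses the arrays by which it was chosen. In WT livers after LPS, 0 of Cpeb1, Cpeb3 and Cpeb4 passed (limma; 0 also at an unadjusted p under 0.05), where 25% of all genes passed. In S534A livers, Cpeb3 and Cpeb4 were higher than in untreated WT livers by 1.95-fold and 1.30-fold, 2 of the 3 members tested, where 26.9% of all genes passed. These 2 comparisons share the untreated arrays, and each shares its LPS arrays with the genotype comparison.

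**Figure D1:**
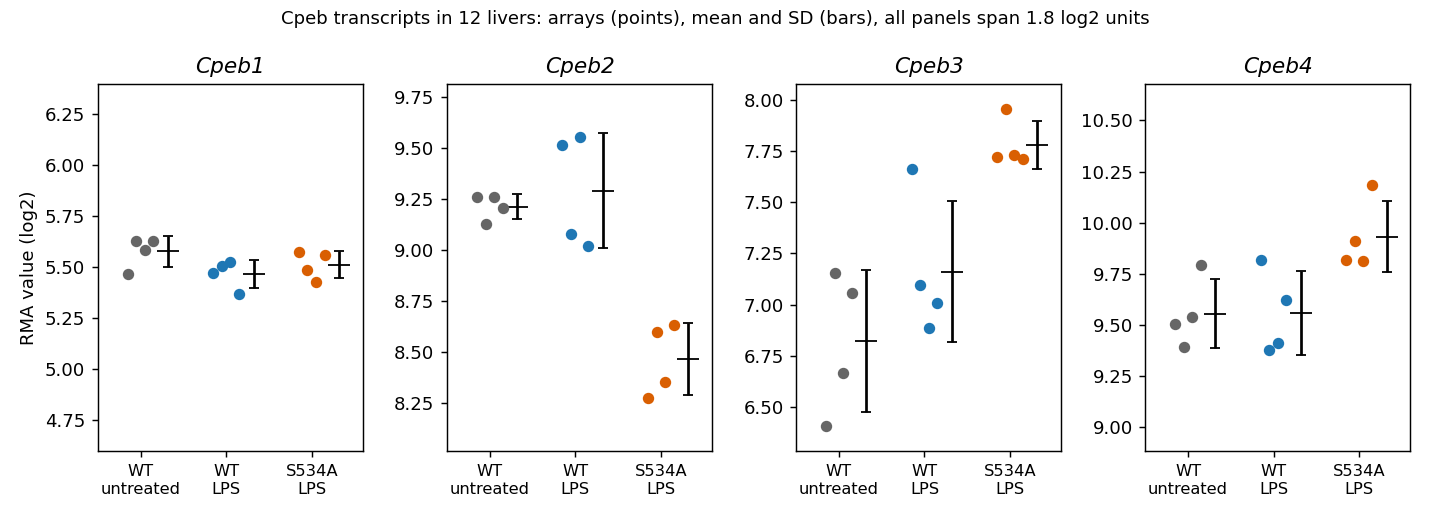
RMA values (log2, vertical axis) of the 4 Cpeb transcripts on each of the 12 arrays, grouped as untreated WT, WT LPS and S534A LPS; points are arrays, and the bar beside each group is its mean with the SD of 4 arrays, with every panel spanning the same number of log2 units. The 4 S534A LPS points of Cpeb2 lie at 8.28 to 8.63, below all other points of that gene, and those of Cpeb3 lie at 7.71 to 7.96, above all others.

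Cpeb2, which binds messages such as that of HIF-1alpha in other cells, read 9.26, 9.13, 9.26 and 9.21 on untreated replicates 1 to 4. The WT LPS replicates read 9.51, 9.08, 9.55 and 9.02. The S534A LPS replicates read 8.28, 8.60, 8.35 and 8.63. All S534A arrays were thus below all arrays of both WT groups, and the WT LPS arrays lay on both sides of the untreated ones. The untreated livers were tightly grouped (9.21 ± 0.06, SD, n = 4), the WT LPS livers were spread more widely (9.29 ± 0.28), and S534A LPS livers averaged 8.47 ± 0.18.

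The S534A LPS mean of Cpeb2 was 0.83 log2 units below the WT LPS mean, or 1.77-fold lower. This is the difference that chose the family and is given without a test. Genes whose 4 S534A arrays all lay below the 4 WT LPS arrays made up 1.18% of all genes, and those called lower 0.00502%. Both shares are printed for scale, and nothing about Cpeb2 is read from them. Leaving out any single array left the difference between -0.92 and -0.74. As the groups did not overlap, no such omission could change its sign, and the range is a description only.

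Against untreated livers, WT LPS livers read 0.08 higher in Cpeb2 and S534A LPS livers 1.68-fold lower, a log2 difference of -0.75. Groups that did not overlap, with the S534A LPS arrays below, were found for 17.5% of all genes. The mean of both LPS groups differed from untreated livers by -0.34 ± 0.11 (SE), which joins the small positive and the larger negative value, and ran from -0.38 to -0.29 with any single array left out. These 3 values share arrays, and the spread estimated from them, with the genotype comparison, and were not tested.

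Cpeb3, a repressor of translation best known from neurons, read highest in S534A livers. Untreated replicates 1 to 4 read 6.40, 7.15, 6.67 and 7.06. The WT LPS replicates read 7.66, 7.09, 6.88 and 7.01. The S534A LPS replicates read 7.72, 7.96, 7.73 and 7.71. Every S534A array lay above every WT array, with WT LPS replicate 1 the closest, while the WT LPS and untreated arrays overlapped. Group means ran from 6.82 ± 0.35 (SD, n = 4) in untreated through 7.16 ± 0.34 in WT LPS to 7.78 ± 0.12 in S534A LPS livers.

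The mean of both LPS groups exceeded the untreated mean of Cpeb3 by 0.65 ± 0.16 (SE; 95% interval 0.31 to 0.99; limma adjusted p = 0.00618). In this comparison 12.3% of all genes were called higher and 18.8% lower, so 1 called member of 3 is near the share over all genes. Separately, S534A LPS livers exceeded untreated ones by 0.96 ± 0.18 (adjusted p = 0.00135), where 11% of all genes were called higher, and WT LPS livers by 0.34 ± 0.18 (95% interval -0.05 to 0.73; adjusted p = 0.197), where 9.34% were. Non-overlapping groups with the LPS arrays above occurred for 13.8% of all genes in the S534A comparison, as for Cpeb3 and Cpeb4. In the WT comparison they occurred for 9.78% (14.9% with the LPS arrays below), and no Cpeb gene did so. The WT interval reaches 0.73, so the test does not show that Cpeb3 was unresponsive in WT livers. Between the LPS groups Cpeb3 was 0.62 higher in S534A, or 1.54-fold, given without a test; genes whose S534A arrays all lay above the WT LPS arrays made up 3.25% of all genes.

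The Cpeb3 call after LPS leaned on which untreated livers were kept. Untreated replicates 1 and 3, the arrays with low Dbp, read 6.40 and 6.67, and replicates 2 and 4, with high Dbp, read 7.15 and 7.06. Without replicates 1 and 3 the difference of both LPS groups from untreated was 0.37 (limma adjusted p = 0.108), and without replicates 2 and 4 it was 0.94 (adjusted p = 0.00149). The WT LPS value was then 0.06 (adjusted p = 0.83) and 0.63 (adjusted p = 0.0303) in turn. S534A LPS livers exceeded the untreated ones either way, by 0.68 (adjusted p = 0.0153) and 1.24 (adjusted p = 0.000423). Both alternatives were chosen after the data were seen.

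**Figure D2:**
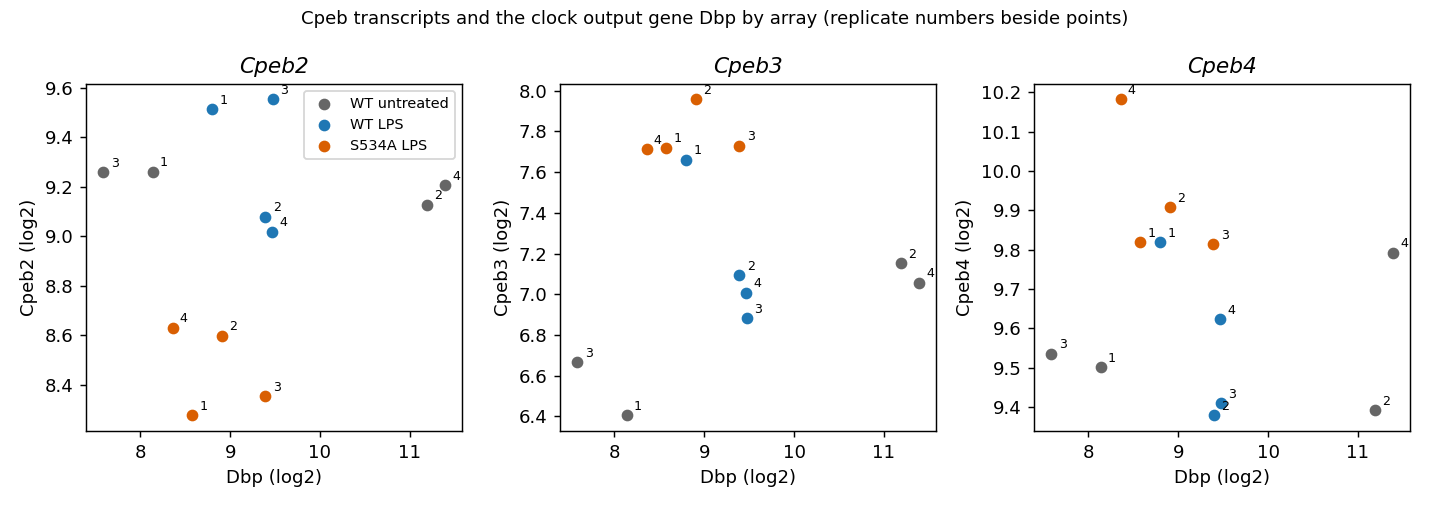
RMA values (log2) of Cpeb2, Cpeb3 and Cpeb4 on the vertical axes against those of the clock output gene Dbp on the horizontal axes, 1 point per array with its replicate number, coloured by group. The untreated livers lie at both ends of the Dbp axis (7.59 and 8.14, 11.19 and 11.39) with the LPS livers between 8.36 and 9.47.

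Dbp encodes a transcription factor whose level swings over the day, and Arntl encodes BMAL1, which peaks in the opposite phase. Dbp read 8.80, 9.39, 9.47 and 9.47 on WT LPS replicates 1 to 4 and 8.58, 8.91, 9.39 and 8.36 on S534A LPS replicates 1 to 4. WT LPS replicate 1, the WT array with the highest Cpeb3 and Cpeb4, also had the lowest Dbp and the highest Arntl (8.83) of its group, whose other arrays read 7.37 to 7.52 in Arntl. S534A LPS replicate 3 had a Dbp value like those of WT LPS replicates 2 to 4. It read 7.73 in Cpeb3, 8.35 in Cpeb2 and 9.81 in Cpeb4, the lowest Cpeb4 value of its group. It was also the array with the highest pancreas markers. The part of the clock in these values was not tested. Without WT LPS replicate 1 the Cpeb3 difference between the LPS groups was 0.79.

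Cpeb4, the member tied to the stress response and the clock in liver, read 9.50, 9.39, 9.54 and 9.79 on untreated replicates 1 to 4. The WT LPS replicates read 9.82, 9.38, 9.41 and 9.62, and the S534A LPS replicates read 9.82, 9.91, 9.81 and 10.18. All S534A arrays lay above the untreated ones, narrowly so for the lowest, and 13.8% of all genes did so in this comparison. The S534A arrays overlapped WT LPS at a single array, replicate 1. Means were 9.56 ± 0.17 (SD, n = 4), 9.56 ± 0.21 and 9.93 ± 0.17 in untreated, WT LPS and S534A LPS livers.

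S534A LPS livers exceeded untreated ones in Cpeb4 by 0.38 ± 0.12 (SE, 95% interval 0.12 to 0.63, limma adjusted p = 0.0324), where 11% of all genes were called higher. This call was lost without any one of untreated replicates 1, 2 and 3 and S534A LPS replicates 2 and 4 (adjusted p up to 0.103), after centring each array on its median (0.35; adjusted p = 0.0765), and without untreated replicates 1 and 3 together (0.34; adjusted p = 0.128). WT LPS and untreated livers differed by 0.00 ± 0.12 (95% interval -0.25 to 0.26; adjusted p = 0.992), an interval that allows a change either way. The mean of both LPS groups differed from untreated by 0.19 ± 0.10 (adjusted p = 0.19). Between the LPS groups Cpeb4 was 0.37 higher in S534A, or 1.30-fold, given without a test.

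Cpeb1, which acts in oocytes and neurons and in the senescence of fibroblasts, was the dimmest member by its place among all genes: 27.1% of genes had a lower mean, against 80.4% for Cpeb2, 57.5% for Cpeb3 and 87.2% for Cpeb4. Untreated replicates 1 to 4 read 5.47, 5.63, 5.58 and 5.63. The WT LPS replicates read 5.47, 5.51, 5.52 and 5.37, and the S534A LPS replicates read 5.57, 5.49, 5.43 and 5.56. The groups overlapped throughout and the whole range over 12 arrays was 0.26 log2 units. The mean of both LPS groups differed from untreated by -0.09 ± 0.05 (95% interval -0.20 to 0.03; limma adjusted p = 0.244).

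**Figure D3:**
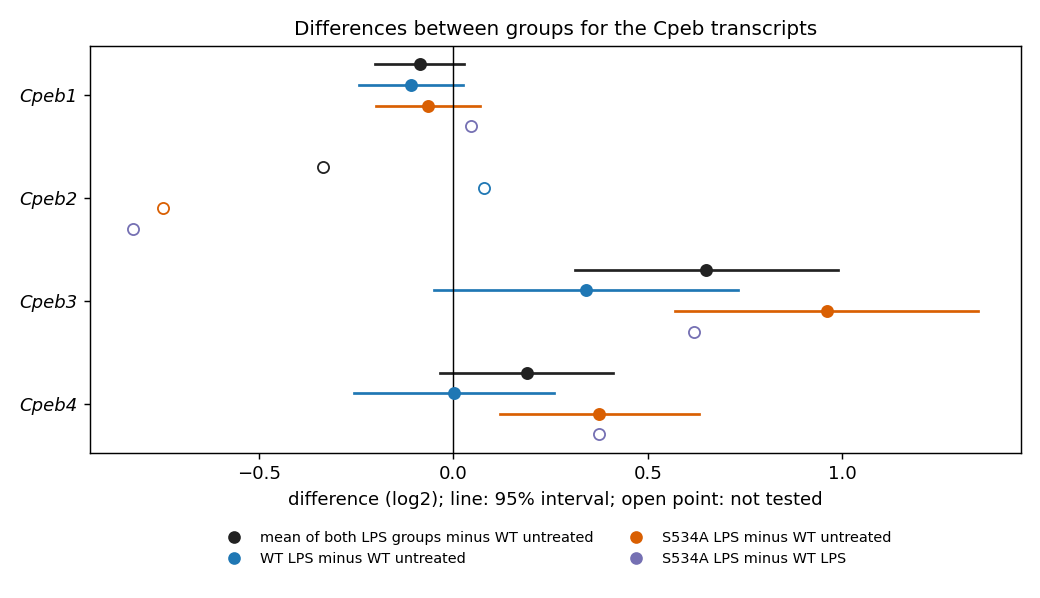
Differences between groups (log2, horizontal axis) for each Cpeb transcript; colours mark the 4 comparisons, lines are 95% intervals of the limma fit, and open points are differences given without a test. The interval of the mean of both LPS groups against untreated livers lies above 0 for Cpeb3 (0.31 to 0.99) and spans 0 for Cpeb1 and Cpeb4; all 4 points of Cpeb2 are open.

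Promoter windows of 300 bases were found in the RefSeq table of build GRCm38.p6 for 3 of the 4 members, and Cpeb2 was not among them. They are shown for the first listed of several annotated starts of Cpeb3 (chr19:37207422-37207721, minus strand) and for Cpeb4 (chr11:31870690-31870989, plus strand), the members that read higher in S534A livers, and for Cpeb1 (chr7:81454709-81455008, minus strand), whose groups overlapped. Most bases of each window lie before the start it is listed for. In the gene table of the same build, Cpeb1 spans chr7:81347026-81458001 and Cpeb4 spans chr11:31870104-31935635. The windows of Cpeb1 and Cpeb4 thus lie inside the genes and not before their outermost starts. Capitals mark the GC box GGGCGG on either strand, the ETS site CCGGAAGT and the E-box CACGTG, with overlaps between matches allowed.

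Cpeb3: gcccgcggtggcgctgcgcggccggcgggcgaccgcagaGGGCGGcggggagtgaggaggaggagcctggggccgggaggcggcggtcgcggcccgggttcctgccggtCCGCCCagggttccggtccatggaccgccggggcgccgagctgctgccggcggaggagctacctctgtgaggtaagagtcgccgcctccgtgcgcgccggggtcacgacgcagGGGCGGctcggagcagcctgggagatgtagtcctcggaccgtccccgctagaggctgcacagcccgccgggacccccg

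Cpeb4: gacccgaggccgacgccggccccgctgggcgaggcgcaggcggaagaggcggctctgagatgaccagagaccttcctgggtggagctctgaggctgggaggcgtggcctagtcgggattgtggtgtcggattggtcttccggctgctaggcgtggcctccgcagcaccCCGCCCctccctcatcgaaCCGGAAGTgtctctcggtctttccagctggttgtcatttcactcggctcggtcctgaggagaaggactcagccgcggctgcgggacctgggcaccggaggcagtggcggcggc

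Cpeb1: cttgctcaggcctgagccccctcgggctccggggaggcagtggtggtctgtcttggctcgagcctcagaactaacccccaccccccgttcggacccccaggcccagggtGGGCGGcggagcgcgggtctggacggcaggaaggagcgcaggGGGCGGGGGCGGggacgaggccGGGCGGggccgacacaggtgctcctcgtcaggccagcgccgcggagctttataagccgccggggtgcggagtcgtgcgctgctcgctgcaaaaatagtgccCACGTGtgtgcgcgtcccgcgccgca

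The 3 windows are rich in G and C (77.7% for Cpeb3, 68.3% for Cpeb4 and 72.7% for Cpeb1). All carry the GC box, as do 35.7% of the 32851 windows of that length in the table. Cpeb4 carries the ETS site, found in 3.89% of windows, and Cpeb1 the E-box, a site of clock and MYC-family factors, found in 7.15%. The kappaB consensus, the site of NF-kB, occurred in none of these windows nor in those at the other 2 listed starts of Cpeb3, against 8.46% of all windows, and neither did the D-box TTANGTAA (2.32%). The motifs were searched on both strands. These are matches of letters in short windows, and the sequence before the outermost starts of Cpeb1 and Cpeb4 was not searched.

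Among partners of the CPEB proteins, the share called in either direction after LPS was near the 31.1% over all genes. By direction more of them rose than fell, the reverse of all genes. Of 21 measured genes for cytoplasmic polyadenylation and repression, 5 rose and 2 fell in the mean of both LPS groups against untreated livers (limma, adjusted p under 0.05), where 12.3% of all genes rose and 18.8% fell, with a median difference of 0.08 against 0.03 over all genes. Cpsf2, a subunit of the cleavage and polyadenylation specificity factor that reads the polyadenylation signal, was 2.00-fold higher (1.00 ± 0.09, SE; adjusted p = 1.57e-06), with 7.97 to 8.34 in untreated livers, 8.95 to 9.24 in WT LPS and 9.14 to 9.43 in S534A LPS livers. Lsm14a, a component of repressive granules, rose by 0.41 ± 0.09 (0.21 without untreated arrays 1 and 3; adjusted p = 0.0818), and Msi2, an RNA-binding regulator of translation, by 0.30 ± 0.07. The RNA helicase gene Ddx6, whose product holds CPEB-bound messages silent, fell by 0.34 ± 0.08 (adjusted p = 0.00636). Ddx6 and Msi2 did not pass without untreated arrays 2 and 4 (adjusted p = 0.0576 and 0.0584). Tent2, the cytoplasmic poly(A) polymerase that CPEB1 recruits, was among the 14 that did not pass (0.19 ± 0.07; adjusted p = 0.0746). The list was left with 1 fallen gene without any one of untreated replicates 2, 3 and 4. Over the alternatives other than single arrays, 3 to 7 of its genes rose and 0 to 2 fell.

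Deadenylation genes split evenly. Of 20 measured, 5 rose and 5 fell, with a median of 0.09, against 12.3% and 18.8% of all genes. The 4 with the smallest p all fell: Cnot1, the scaffold of the CCR4-NOT deadenylase, by 0.40 ± 0.07 (limma adjusted p = 0.000649), its partner Cnot9 by 0.42 ± 0.08, Tob1, which links CPEB3 to the deadenylase, by 0.66 ± 0.12, and Zfp36l2, a destabiliser of AU-rich messages, by 0.51 ± 0.11. Tob1 read 10.57 to 11.01 in untreated, 9.89 to 10.45 in WT LPS and 9.72 to 10.21 in S534A LPS livers, so both LPS groups lay below the untreated one. Zfp36l2 did not pass without untreated arrays 2 and 4 (-0.35; adjusted p = 0.0694). The count of deadenylation genes that rose ran from 1 to 8 over the alternatives, and was 2 or 3 without any one of untreated replicates 1, 3 and 4, WT LPS replicates 1 and 3, and S534A LPS replicates 2 and 3.

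Of 11 measured transcripts reported as CPEB targets, 4 rose and 1 fell (median 0.05), against 12.3% and 18.8% of all genes. Stat3, a transcription factor of the acute phase response, rose by 1.42 ± 0.05 (limma adjusted p = 2.65e-10). Egfr, the epidermal growth factor receptor gene, rose by 0.47 ± 0.06, and Hif1a, the gene of HIF-1alpha, by 0.37 ± 0.08. Vegfa, the gene of an endothelial growth factor, fell by 0.36 ± 0.08. Hif1a did not pass without untreated arrays 1 and 3 (0.25; adjusted p = 0.0677), nor Vegfa without 2 and 4 (-0.22; adjusted p = 0.0641). Without untreated replicate 1 the list held 2 genes that fell. These are transcript levels, and what CPEB proteins do to translation of these messages was not measured. In the comparison of S534A with WT livers after LPS, 0 genes of these 3 lists passed (limma; 0.166% of all genes were called higher and 0.171% in either direction), and 1 was higher and 1 lower at an unadjusted p under 0.05. The smallest adjusted p of the 3 lists was that of Zfp36l2 (-0.52 ± 0.13, limma adjusted p = 0.201). Its 4 S534A arrays lay below the WT LPS arrays, as did those of Egfr and of 1.18% of all genes.

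**Figure D4:**
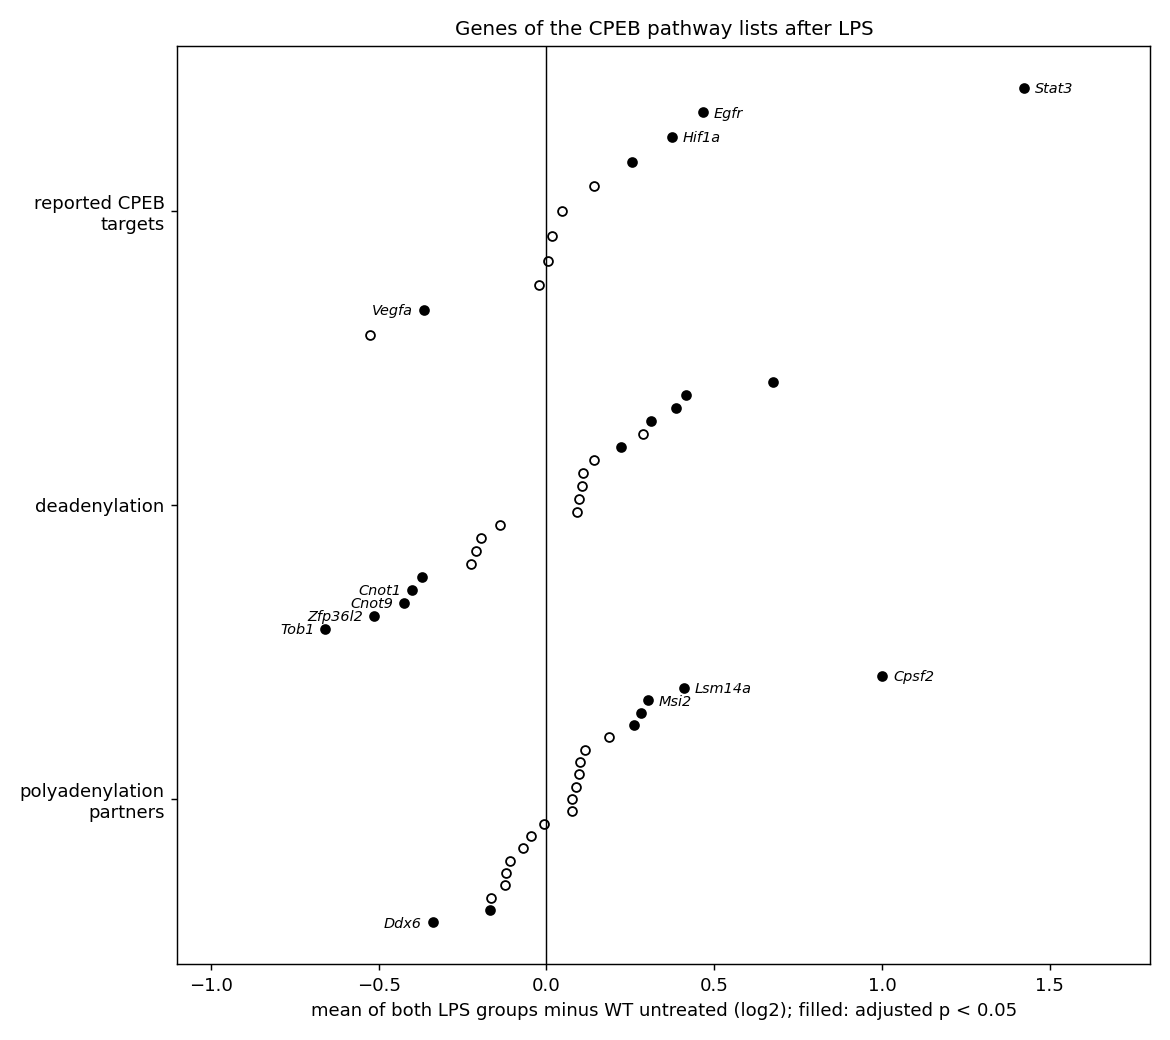
Difference between the mean of both LPS groups and untreated WT livers (log2, horizontal axis) for the measured genes of the 3 CPEB pathway lists, 1 point per gene, sorted within each list; filled points passed the test and the 4 with the smallest p of each list are named. Stat3 (1.42) and Cpsf2 (1.00) lie farthest to the right and Tob1 (-0.66) farthest to the left.

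Cpeb4 is tied in liver to the unfolded protein response and the clock, and the genes of both were counted in the same comparison, in which Cpeb4 itself did not pass. Of 16 unfolded protein response genes, 6 rose and 1 fell (median 0.29; 12.3% and 18.8% over all genes): Atf3, a stress-induced transcription factor, rose by 1.73 ± 0.28, Xbp1, a main transcription factor of the response, by 0.56 ± 0.10 and Creld2, an endoplasmic reticulum protein gene, by 1.12 ± 0.34, and Ern1, which encodes the sensor that splices Xbp1, fell by 0.60 ± 0.09. Of 16 clock genes, 2 rose and 6 fell (median -0.11): Nfil3, a repressor at D-box sites, rose by 1.31 ± 0.27 and Nr1d1, the gene of the nuclear receptor REV-ERBalpha, by 0.69 ± 0.18, and the repressor genes Cry1 and Cry2 fell by 0.55 ± 0.09 and 1.17 ± 0.19. Creld2 lost its call under 7 of 24 alternatives, and read 0.74 without untreated replicate 2, 0.86 without untreated replicate 4 and 0.17 without both. The clock genes that fell were 3 without either of those arrays. Without untreated arrays 1 and 3, 3 clock genes rose and 9 fell, with Nfil3 at 1.99 and Cry2 at -1.62, and without 2 and 4, 8 rose and 4 fell, with Nfil3 at 0.63 and Cry2 at -0.72. In the unfolded protein response list, the genes that rose were 3 without WT LPS replicate 3. Between the LPS groups 0 genes of either list were called (limma; 1 clock gene was lower, and 1 stress gene was higher and 1 lower, at an unadjusted p under 0.05). Cry2 read lower on all S534A (7.33 to 7.64) than on all WT LPS arrays (7.82 to 8.54), a difference of -0.73 ± 0.22 (limma adjusted p = 0.37). In the stress list the groups also did not overlap for Atf3 (0.86 ± 0.32) and Trib3 (-0.22 ± 0.12). Over all genes, 3.25% had all S534A arrays above the WT LPS arrays and 1.18% below.

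Cell type markers moved between the same groups. The 13 neutrophil markers averaged 5.55 to 5.71 in untreated, 6.56 to 6.76 in WT LPS and 6.85 to 7.11 in S534A LPS livers. Their group means (5.63, 6.66 and 6.96) ran in the same order as those of Cpeb3 (6.82, 7.16 and 7.78). The larger step was from untreated to WT LPS for the markers, and from WT LPS to S534A LPS for Cpeb3. The means of the polyadenylation partners (8.70, 8.78 and 8.80) and of the reported CPEB targets (7.97, 8.11 and 8.17) also ran in this order. In the mean of both LPS groups 10 of 13 neutrophil markers rose, where 12.3% of all genes rose and 18.8% fell. In S534A against WT after LPS 2 were called higher (limma, against 0.166% of all genes), and 7 were higher at an unadjusted p under 0.05. The 10 sinusoidal endothelial markers averaged 9.41 to 9.61, 8.86 to 9.27 and 8.85 to 9.08 in turn, with 1 called higher and 8 lower after LPS. Of these, 0 were called between the LPS groups (limma), and 3 were lower there at an unadjusted p under 0.05. Of 10 Kupffer cell markers 2 rose and 5 fell, and of 9 stellate cell markers 4 fell. Of 8 lymphocyte markers 2 rose and 2 fell, and the same shares of all genes apply to each list. Between the LPS groups 0 genes of these 3 lists were called (limma), and 1 stellate cell marker was higher at an unadjusted p under 0.05. The part of these cells in the Cpeb values was not tested. In whole liver, fewer cells of a type and less RNA per cell cannot be told apart.

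The genes whose profiles over the 12 arrays lay nearest to that of Cpeb2, by the root mean square difference of log2 values centred on each gene's mean, were Htra4 (0.22), Klf15 (0.24), Rnf103 (0.24), Gucd1 (0.24) and Zfp36l2 (0.24), each lower in S534A than in WT LPS livers by 0.33 to 0.58. Against the SD of Cpeb2 itself over the arrays (0.43), these are loose likenesses. Klf15 encodes a Krüppel-like factor of amino acid metabolism in liver. The nearest to Cpeb3 (SD 0.49) were Socs7 (0.15), Slc12a7 (0.17), Wrn (0.19), Usp12 (0.19) and Plekhf2 (0.19), which were higher in S534A than in WT LPS livers by 0.37 to 0.58. They were picked for their likeness on these same arrays, and the values are a description.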

How the data were processed

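RNA of 12 mouse livers was hybridised to Affymetrix GeneChip arrays. The authors deposited log2 values from RMA (per the submitters' processing notes), a method that makes array distributions alike and so can hide a general shift. Its version and the build used are not given in the sources. Among 35556 probe sets, the 21789 with a single gene symbol were used, and 1621 with several symbols and 12146 with none were not. Symbols were updated by Entrez identifier (21698 matched GRCm38.p6). The probe set with the highest mean was used for the 999 genes with several, which left 19938 genes with no filter on dim ones.

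The 3 groups entered 1 limma fit (version 3.58.1, R 4.3.3; lmFit, then eBayes, all 12 arrays; 9 residual and 3.54 prior degrees of freedom), two-sided, with Benjamini-Hochberg adjustment over all genes and a threshold of 0.05. Differences carry limma's SE and group means the SD. The number of arrays limits the precision. The procedure was tested on simulated data. Members, lists and tests were chosen with earlier results of these data known. A planned test of Cpeb2 in the mean of both LPS groups was withdrawn, because it shares arrays and residual spread with the comparison that chose the gene. Named genes were the 4 members, the 4 genes with the smallest p in each of 5 lists, and nearest profiles. The 5 nearest profiles were taken for Cpeb2 and for each other member called in the mean of both LPS groups, which was Cpeb3. Dbp, Arntl, Tent2 and Trib3 were added after their values were seen. Alternatives were each array left out, 3 arrays with pancreas transcripts left out, only the compared groups, a replicate block, repeated quantile normalisation, median centring, trend and robust eBayes, array weights, a filter on dim genes, other uses of probe sets and a threshold of 0.01.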

Additional observations from a re-analysis of the deposited data

Results flagged for a closer look

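Cpeb3 on S534A LPS replicate 2 read 7.96, apart from the other 3 arrays of its group at 7.71 to 7.73. The gap to the nearest array was 0.935 of the range of the group. Among 12 groups examined, 4 arrays for each of 4 genes in 3 groups, chance marks about 1 in 20. Without this array Cpeb3 in S534A LPS livers exceeded untreated livers by 0.90 (limma adjusted p = 0.00613) and WT LPS livers by 0.56.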

How the results depend on the processing

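A total of 392 values of the 4 genes were recomputed over the comparisons and alternatives, of which 374 kept direction and side of the threshold or moved by less than the replicate SD. Part of this was fixed in advance. Each gene had 1 probe set, so other uses of probe sets returned the same difference. The block, the eBayes options, the threshold and arrays outside a comparison could not move a difference either. The count is therefore a description only. Cpeb2 was not tested. The main fit called 1 gene lower between the LPS groups, the call that chose Cpeb2. That number was 0 with the replicate block, at a threshold of 0.01 and without the arrays with pancreas transcripts. It was also 0 without WT LPS replicate 3 and without any one of S534A LPS replicates 1 to 4. Without any one of the other arrays it was 1 to 6, and with array weights 132. The Cpeb2 difference kept its sign between the LPS groups, in S534A LPS and in the mean of both LPS groups against untreated livers. In the former comparisons the groups did not overlap, so leaving arrays out could not change the sign. The small WT LPS value of Cpeb2 turned to -0.0096 without WT LPS replicate 3. In the mean of both LPS groups against untreated livers, Cpeb3 lost its call without untreated arrays 1 and 3 (0.37; single arrays 0.51 to 0.76), and its WT LPS value passed without 2 and 4 (0.63). Cpeb4 in S534A LPS against untreated livers lost its call after median centring (0.35), at 0.01 (0.38) and without untreated arrays 1 and 3 (0.34), with 0.29 to 0.45 over single arrays. Its WT LPS value, near 0, changed sign after median centring (-0.031) and without untreated arrays 1 and 3 (-0.034), with -0.085 to 0.081 over single arrays. Cpeb1 between the LPS groups read 0.12 without the arrays with pancreas transcripts, against 0.04. Where no array was left out, the cause was not tested. The filter on dim genes removed Cpeb1, which has no value there, and fitting only the compared groups is the same fit for the mean of both LPS groups. Of 20 named list genes, 13 kept their call under every alternative and 0 changed sign. The labels do not say whether the replicate numbers pair the arrays. Same-numbered arrays did not deviate together (correlations -0.27 to 0.21), which cannot settle it, since a pairing of small effect could look the same. The block left 2196 genes higher and 3481 lower after LPS, against 2443 and 3751; Cpeb3 read 0.65 with it (limma adjusted p = 0.0137), and no call of a tested member changed. Signal over background was not measured here.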
